A study of Mus musculus with 6 samples.

Results

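The HNF4 transcription factor genes were described by the accessible chromatin intervals that a pooled kidney ATAC-seq peak list placed over them. The members were Hnf4a (ENSMUSG00000017950.18) and Hnf4g (ENSMUSG00000017688.16), and each interval overlapping the stretch from 3 kb upstream of the gene start to the gene end was counted. The rule gave 57 of the 279569 intervals in the list, 22 at Hnf4a and 35 at Hnf4g. ATAC-seq cuts nuclei with the Tn5 transposase, which inserts adapters where DNA is open. The 6 mapped libraries were 3 WT kidneys, which by the study's methods were Acly fl/fl littermates without Cre, and 3 Acly cKO kidneys, which carried Acly fl/fl with Ksp-Cre (Cdh16-Cre). By the methods, Ksp-Cre is active in epithelium along the tubule, from the proximal part to the collecting duct. All 6 libraries carried the treatment label Control and came from nuclei of whole kidney cortex, and no age is given for these mice in the sources used here. The peak list pooled the libraries, so no value below belongs to a genotype, and the spread between mice could not be measured. The methods count 2 further WT libraries, and whether their reads entered the pooled call is not given in the sources used here. The WT libraries came from batches 1 and 2 and the Acly cKO libraries from batches 4 and 5, and these cannot be told apart from genotype.

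HNF4 alpha and HNF4 gamma are nuclear receptors that bind DNA as dimers and switch on genes of lipid, glucose and transport metabolism in liver, gut, pancreas and the renal proximal tubule. In the tubule they are counted among the factors that give proximal tubule cells their identity. Hnf4a has a pair of well-known promoters. P1, the downstream promoter, is the main start in adult liver and kidney, and P2, the upstream promoter, is used in pancreas and gut.

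The list gave each summit, the position of highest signal within an interval, a linear fold enrichment of the Tn5 signal over the background. Every value was a whole multiple of 0.0655, within 0.05 of a step, in all 749750 summits, and a given fold always had the same q. The background was therefore the same constant at every position, and fold values could be compared between genes as levels of pooled signal. Treating the number of steps as a count gave an approximate 95% Poisson interval for each level. It covers counting error of the pool only and not the spread between mice. Any constant that the caller adds to signal and background before taking the ratio was not removed. The depth of single libraries is unknown. Kidney cortex holds many cell types, and a low level may mean fewer cells with the site open or less signal in each cell, which cannot be told apart in bulk samples.

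The sequences upstream of the starts and at the strongest intronic sites are shown first, because the results turn on them. All are from the plus strand of GRCm39, in lower case, 200 bases each. Capitals mark a word resembling the binding site of HNF1 (GTTAAT, then 1 base, then its reverse complement, with up to 2 mismatches, on either strand). The first 4 are the bases before a start, and the last 3 are centred on a summit.
Hnf4a P2, chr2:163348528-163348727: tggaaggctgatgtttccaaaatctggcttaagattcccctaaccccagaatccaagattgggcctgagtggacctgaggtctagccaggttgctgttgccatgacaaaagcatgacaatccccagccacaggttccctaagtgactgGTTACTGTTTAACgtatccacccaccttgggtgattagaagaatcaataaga
Hnf4a P1, chr2:163388869-163389068: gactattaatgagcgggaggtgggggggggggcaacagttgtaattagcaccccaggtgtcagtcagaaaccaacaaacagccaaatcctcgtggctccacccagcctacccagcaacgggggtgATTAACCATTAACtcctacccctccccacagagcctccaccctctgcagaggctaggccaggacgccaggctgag
Hnf4g-201, chr3:3572884-3573083: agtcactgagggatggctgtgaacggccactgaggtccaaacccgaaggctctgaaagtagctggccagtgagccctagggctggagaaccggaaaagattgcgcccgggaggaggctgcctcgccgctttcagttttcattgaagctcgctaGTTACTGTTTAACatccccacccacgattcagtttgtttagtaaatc
Hnf4g-202, chr3:3699005-3699204: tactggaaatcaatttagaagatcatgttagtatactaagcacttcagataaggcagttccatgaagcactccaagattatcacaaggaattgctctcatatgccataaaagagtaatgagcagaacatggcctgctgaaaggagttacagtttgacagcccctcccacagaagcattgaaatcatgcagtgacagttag
Hnf4a intron 1 of Hnf4a-205, fold 30.4, chr2:163377052-163377251: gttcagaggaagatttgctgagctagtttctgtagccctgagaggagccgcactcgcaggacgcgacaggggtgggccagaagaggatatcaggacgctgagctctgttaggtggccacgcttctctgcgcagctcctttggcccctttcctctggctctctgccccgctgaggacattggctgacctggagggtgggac
Hnf4a intron 5 of Hnf4a-201, fold 22.5, chr2:163402316-163402515: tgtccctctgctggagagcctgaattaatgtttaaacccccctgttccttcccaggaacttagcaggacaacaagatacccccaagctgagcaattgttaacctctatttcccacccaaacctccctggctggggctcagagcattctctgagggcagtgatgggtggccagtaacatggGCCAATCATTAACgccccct
Hnf4g intron 1 of Hnf4g-201, fold 27.7, chr3:3678739-3678938: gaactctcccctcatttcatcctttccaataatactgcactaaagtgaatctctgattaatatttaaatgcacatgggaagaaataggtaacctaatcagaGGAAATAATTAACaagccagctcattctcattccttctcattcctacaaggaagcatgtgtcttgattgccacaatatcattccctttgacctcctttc

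Hnf4a, which encodes HNF4 alpha, lies at chr2:163348728-163414830 on the plus strand of GRCm39 and spans 66103 bp with 7 annotated transcripts. Its starts differed widely in accessibility. At P1 (chr2:163389069, the start of Hnf4a-201 and 3 other transcripts) the summit stood 9 bp before the start, with a fold enrichment of 25.7 (95% Poisson interval 23.2 to 28.4) and a −log10 q of 400. That was higher than 95.9% of all intervals, most of which are weak. Set against other genes by the highest summit within 1 kb of a start, it was above 56.9% of protein-coding genes, whose median was 19.7. At P2 (chr2:163348728, the start of Hnf4a-205), 40341 bp upstream of P1, the interval over the start reached only 1.70, the lowest fold in the whole list, with a −log10 q of 1.37. The highest summit within 500 bp of P2 stood 384 bp upstream of it with a fold of 1.77 (1.16 to 2.57). P1 thus exceeded P2 by a factor of 14.6, and their counting intervals lay far apart.

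A second strong start lay close to P1. The 4239 bp interval over P1 held 9 summits, and the summit 148 bp before the start of Hnf4a-204 (chr2:163392003), inside the first intron of the P1 transcripts, had a fold of 16.2 (14.3 to 18.4). The start of Hnf4a-203 (chr2:163388737), a transcript with no defined coding sequence, fell in the same interval. Its nearest summit had a fold of 3.47, and the strong summit within 500 bp of it, 323 bp downstream, was that of P1. Strong signal near the Hnf4a starts thus came from 2 summits, that of P1 and that before Hnf4a-204.

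Hnf4g, which encodes HNF4 gamma, lies at chr3:3573084-3724860 on the plus strand, spans 151777 bp and has 2 annotated transcripts. Here the order was the opposite, with the strong start upstream. The start of Hnf4g-201 (chr3:3573084) had a summit 45 bp before it with a fold of 26.1 (23.6 to 28.8) and a −log10 q of 409, higher than 96.0% of all intervals and, by the highest summit within 1 kb of a start, above 57.3% of protein-coding genes. The start of Hnf4g-202 (chr3:3699205), which the annotation calls canonical, lies 126121 bp downstream and had a summit 22 bp past it with a fold of 2.03 (1.38 to 2.88) and a −log10 q of 2.84. The ratio between these starts was 12.9. Fold enrichment at the Hnf4g-201 start and at Hnf4a P1 differed by less than the counting error of either value.

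**Figure D1:**
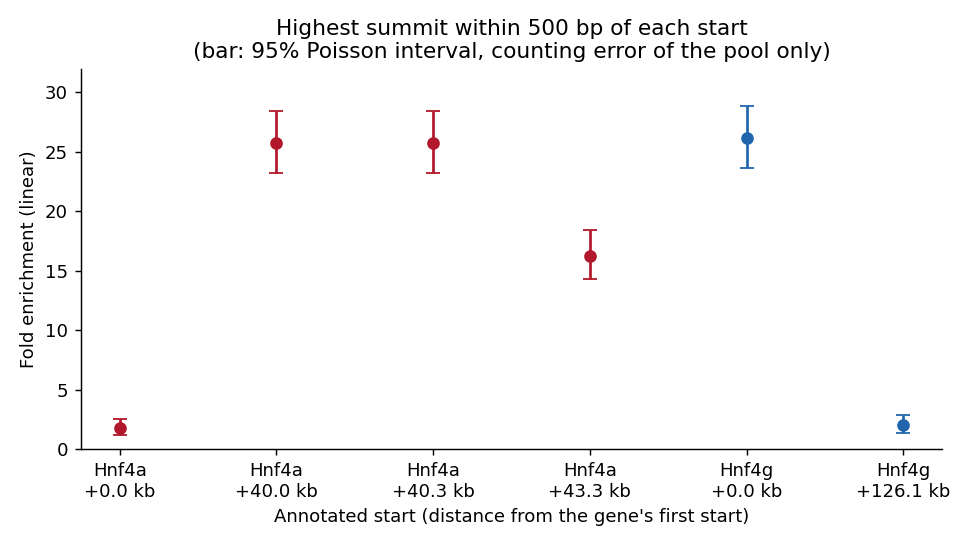
Fold enrichment (linear axis) of the highest summit within 500 bp of each annotated start, with 95% Poisson intervals for counting error of the pool. P1, the third point, lies at 25.7 (the second point repeats its summit) and the first Hnf4g start at 26.1, and P2, the first point, lies at 1.77 and the second Hnf4g start at 2.03.

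Having a strong and a weak start was common among genes. Of 4173 protein-coding genes with coding starts at least 10 kb apart, 53.9% had a start of at least 20-fold and another under 5-fold, as did both HNF4 genes. At 65.5% of all 4173 genes a far start had no summit at all. P2 and the Hnf4g-202 start each had a called summit, but at the low end of the list. The interval over P2 had the lowest fold of the list, 1.70. Both HNF4 genes had a summit of at least 5-fold within 1 kb of a start, which 67.4% of the 21757 protein-coding genes also had.

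The upstream sequences of the starts differed in base composition. The 200 bases before P1 had a GC content of 58.5% and an observed-to-expected CpG ratio of 0.235, and those before P2 had 47.5% and 0.0887. Before the Hnf4g-201 start the GC content was 53.5% and the CpG ratio 0.63, and before the Hnf4g-202 start they were 40.5% and 0. Between P1 and P2, and between the Hnf4g starts, the start with strong signal had the higher GC content and the higher CpG ratio. The other Hnf4a starts did not all follow this order. Before Hnf4a-203, whose nearest summit had a fold of 3.47, the GC content was 50.5% and the CpG ratio 0.395, above that of P1. Before Hnf4a-204 they were 58.5% and 0.235. The median summit window in the whole list had a GC content of 50.5% and a CpG ratio of 0.191.

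The weak P2 start of Hnf4a and the strong Hnf4g-201 start shared the longest run of bases found between any of these upstream sequences. The 13-base word GTTACTGTTTAAC began 52 bases before P2 and 47 bases before the Hnf4g-201 start, in the same orientation, and is the stretch in capitals in both sequences above. With the 12 bases that follow it, 22 of 25 bases were identical, GTTACTGTTTAACgTatCCACCCAC at P2 and GTTACTGTTTAACaTccCCACCCAC at Hnf4g-201, where capitals mark identical bases. The next longest run shared by any pair of these upstream sequences was 9 bases. The word, on either strand, was present in the 200 bases before 4 of 67308 coding transcript starts, those of Hnf4a P2, Hnf4g-201, Glis1 and Cyp2c68. Folds within 500 bp were 1.77, 26.1 and 3.60 at the first 3, and no summit was called near the Cyp2c68 start. The same word thus stood before a start with almost no signal and before a start somewhat above the median level of genes. This comparison was made after the sequences had been seen.

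Away from the starts, the strongest site of Hnf4a lay between P2 and P1. The interval chr2:163376138-163379029 held 8 summits and reached a fold of 30.4 (27.7 to 33.3) with a −log10 q of 505, 28424 bp downstream of P2 in the first intron of Hnf4a-205 and outside the P1 transcripts. It was higher than 96.7% of all intervals and the highest interval of either HNF4 gene. Its 7 other summits were much lower, so that the median over its summits was 3.01. Next to it, chr2:163373607-163375894 reached 9.30.

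The region between this site and P1 was open over a long stretch. The interval chr2:163379361-163385161, 5801 bp with 14 summits, reached 19.4 (17.3 to 21.8) at a summit 5925 bp before the Hnf4a-203 start. It also held a summit of 9.76 located 2 bp from the start of Hnf4aos, an antisense long non-coding RNA gene on the minus strand. The body of Hnf4aos, chr2:163325137-163383642, also spans P2 and the Hnf4a summits of 9.30, 30.4 and 19.4. ATAC-seq does not record strand, so signal at these places cannot be assigned to either gene.

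Within the gene body downstream of P1, the widest interval of Hnf4a, chr2:163395843-163404791, covered 8949 bp with 28 summits. It reached 22.5 (20.2 to 25.0) in intron 5 of Hnf4a-201. The interval before it, chr2:163392864-163395477, reached 5.50 (4.39 to 6.81) in intron 1 of Hnf4a-201. Further downstream the signal was low, with 3.01 at chr2:163405090-163406888 in intron 7, 2.68 at chr2:163410625-163411601 in intron 8 and 3.27 at chr2:163411896-163414733 over exon 10.

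The strong sites of Hnf4a were therefore packed together. All 6 intervals of at least 5-fold lay among 7 intervals within 31185 bp, chr2:163373607-163404791, which runs from just before the strongest intronic site to the wide interval of the gene body. The 10 intervals before this stretch, P2 included, ranged from 1.70 to 2.68, the highest at chr2:163354835-163355031. The 5 intervals after it ranged from 2.23 to 3.27.

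At Hnf4g the strongest interval also lay in an intron and not at a start. The interval chr3:3678328-3679697, 1370 bp wide with 1 summit, had a fold of 27.7 (25.1 to 30.5) and a −log10 q of 444, and was higher than 96.3% of all intervals. It lies in the first intron of Hnf4g-201, 105755 bp past the strong start and 20366 bp before the weak Hnf4g-202 start. The counting interval of this site overlapped that of the Hnf4g-201 start and that of the strongest Hnf4a site.

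This site was part of a group. Within 4 kb of its summit, 5 intervals with highest folds from 3.40 to 27.7 occupied 6679 bp, chr3:3674552-3681230, and 4 of them reached 5-fold. Besides the strongest, these were chr3:3680055-3681230 at 10.2 (8.67 to 11.9), chr3:3677175-3678154 at 9.69 (8.19 to 11.4) and chr3:3674552-3675946 at 8.12 (6.75 to 9.68). The interval of 3.40 was chr3:3676101-3676696.

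Weaker isolated sites lay nearer the Hnf4g-201 start. The interval chr3:3628599-3629966 reached 6.55 (5.33 to 7.96), chr3:3647527-3650051 reached 6.09 (4.91 to 7.46) and its neighbour chr3:3646735-3647057 reached 3.80 (2.88 to 4.91). Between the strong start and the first of these, the 11 intervals of the intron ranged from 1.70 to 2.36. After the group, the 6 remaining intervals, the Hnf4g-202 start included, ranged from 1.77 to 2.42. By position in Hnf4g-201, 32 of the 35 highest summits lay in intron 1, 2 lay outside the transcript and 1 lay in intron 5.

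**Figure D2:**
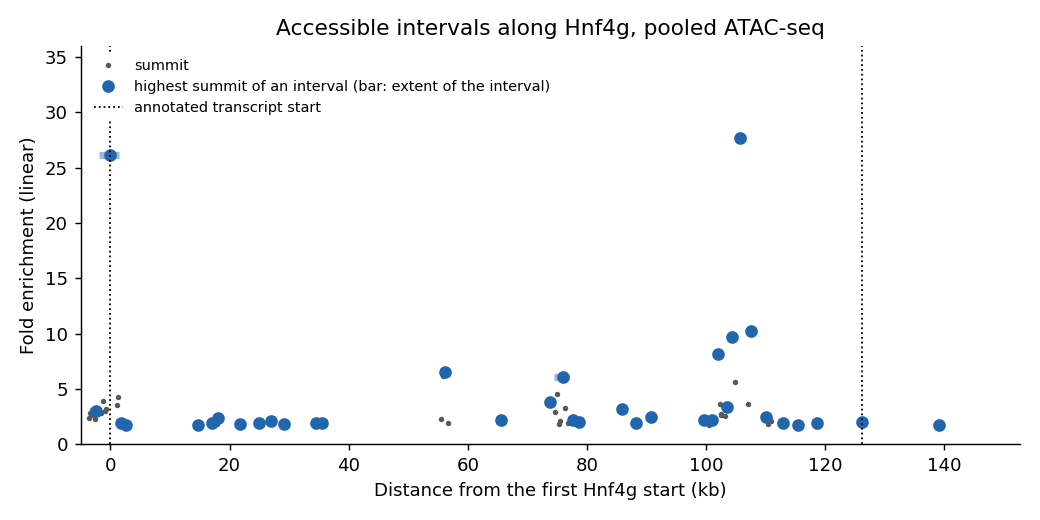
Fold enrichment (linear axis) of intervals and summits against distance from the first start of Hnf4g in kb, with dotted lines at annotated starts. The strong start (26.1) and the group of sites around the 27.7-fold summit are separated by a long intron of mostly low intervals, and the second start is at 2.03.

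Over all intervals, the members did not stand above the list by level. At Hnf4a 6 of 22 intervals (27.3%) and at Hnf4g 7 of 35 reached 5-fold, against 24.5% of all intervals. A q under 1e-05 was reached by 12 of 22 (54.5%) and 13 of 35 (37.1%), against 54.9%. The median fold was 2.49 at Hnf4a and 2.16 at Hnf4g, against 2.55 in the list, and 7 of 22 (31.8%) and 14 of 35 of their intervals were under 2-fold, against 25.7% of all intervals. Shares near these background values are no result about the HNF4 genes. Counted by summit, 22 of 118 at Hnf4a (18.6%) and 9 of 72 at Hnf4g (12.5%) reached 5-fold, against 18.4% of all summits.

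**Figure D3:**
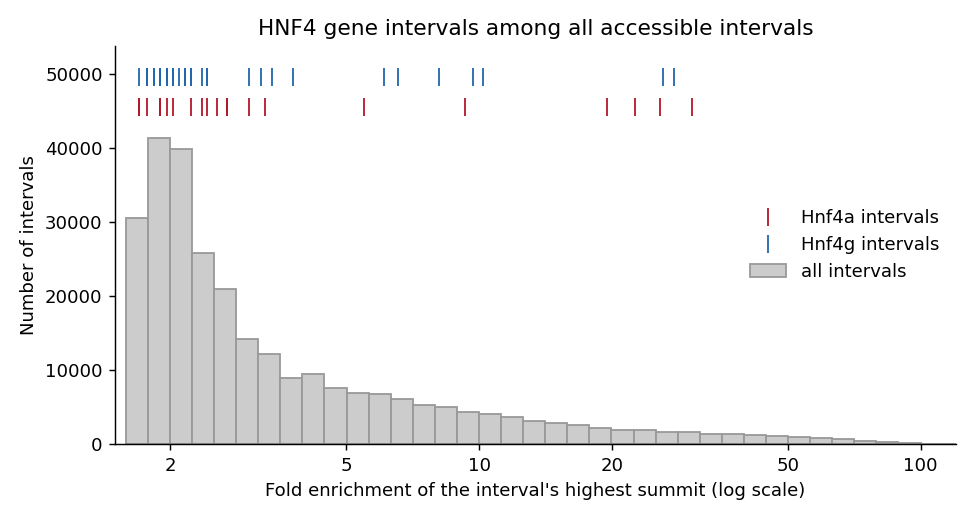
Number of intervals (linear axis) by fold enrichment of the highest summit (log axis) over the whole list, with a tick for every Hnf4a and Hnf4g interval above. Most ticks lie with the bulk of the list under 4-fold, and 6 Hnf4a and 7 Hnf4g ticks lie at 5-fold or more.

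The HNF4 genes differed more in extent than in height. Intervals covered 53.8% of the Hnf4a region and 14.8% of the Hnf4g region, against a median of 16.7% over protein-coding genes. Hnf4a thus ranked above 80.4% of genes by covered share and Hnf4g above 47.0%. A large covered share was not particular to Hnf4a among the nuclear receptor genes compared below. Nr2f6, Rxrb, Rara, Nr2f2, Esrra, Rxra and Rarg had larger shares than Hnf4a (84.6% to 100%). The remaining receptor genes had smaller shares than Hnf4a (5.42% to 51.2%). Hnf4a had 3.18 intervals per 10 kb and Hnf4g 2.26, against a median of 1.86. Median widths were 552.5 bp at Hnf4a and 340 bp at Hnf4g, against 434 bp in the list. By highest fold the genes ranked above 57.7% (Hnf4a) and 54.1% (Hnf4g) of protein-coding genes, and 55.3% of genes had an interval of at least 20-fold, as both HNF4 genes did.

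The strong windows of the genes also differed in base composition. These were the 200 bases around the highest summit of each interval of at least 5-fold. Over 6 windows at Hnf4a the GC content ranged from 52.0% to 64.5% (median 53.8%). Over 7 windows at Hnf4g it ranged from 32.5% to 52.5% (median 38.5%). The ranges met only at their ends, where the highest Hnf4g window was that of the Hnf4g-201 start. The strongest Hnf4g site, at 37.5% GC with no CpG, had almost the same fold as the Hnf4g-201 start, at 52.5% and a CpG ratio of 0.726.

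Short words resembling factor binding sites were then counted in the 200 bases around each interval's highest summit, on both strands. The HNF4 word CAAAGTCCA was in 0 of 57 windows, against 0.884% of all windows, and in 0 of 57 whole intervals, against 2.02%. The looser word CAAAGNNCA was in 1 window (1.75%), a weak Hnf4a interval of 1.90-fold, against 7.27% of all. With 1 mismatch allowed in CAAAGTCCA, 4 windows (7.02%), all at Hnf4g and 1 of them the 9.69-fold interval, held it, against 9.04% of all. These counts are too small to be read as a difference from the list, and a missing word says nothing about whether HNF4 binds there.

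The HNF1 word was found at several of the strongest sites. With up to 2 mismatches it was in 6 of 57 windows (10.5%), against 2.7% of all windows, and in 5 of the 13 windows of at least 5-fold, against 5.82% of all such windows. The 5 were P1, the 22.5-fold site in intron 5 of Hnf4a, the Hnf4g-201 start, the 27.7-fold Hnf4g site and the 6.55-fold Hnf4g site. The strongest Hnf4a site (30.4) and the 19.4-fold site had none. The word also began 52 bases before the weak P2 start, outside the summit windows counted here. With up to 1 mismatch no member window held it, against 0.376% of all windows, and the wider form was chosen after the sequences had been seen. The word is rich in A and T, and the list shares were not matched for GC content. The Hnf4g windows of 6.55-fold, 2.42-fold and 27.7-fold with the word had 35.0%, 41.5% and 37.5% GC, against a list median of 50.5%. The other windows with it had 52.5% to 64.5%. These counts are too small to be read as a difference from the list.

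Other words were sparse. The CTCF word, CCA, AG and GGC with 2 free bases between each, was in 3 of 57 windows (5.26%), against 4.23% of all. All 3 were at Hnf4a (13.6% of its windows), the 9.30-fold interval and intervals of 1.90-fold and 2.36-fold. Among windows of at least 5-fold it was in 1 of 13, against 7.96% of all such windows. The AP-1 word TGANTCA was in 5 of 57 windows (8.77%), 1 of them at least 5-fold, against 12.4%. The ERR word TCAAGGTCA (0.68% of all windows) and the NF1 word, TTGGC and its reverse complement with 5 bases between (0.0712%), were in none. The 3 forms of the HNF4 word overlap each other by construction, as do the 2 forms of the HNF1 word.

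Among nuclear receptor genes, the relatives of HNF4, both genes stood in the lower part of the order by highest fold. Hnf4a was 11th and Hnf4g 13th of 17. The immediate neighbours of Hnf4a were Rxra (32.7), a shared dimer partner of many nuclear receptors, and Nr2f1 (29.3), an orphan receptor of the COUP-TF family. Hnf4g lay between Nr2f1 and Esrrg (24.0), an orphan receptor of the oestrogen-related group. The counting intervals of each of these neighbours overlapped, so this order is not resolved even within the pool. The highest genes were Nr2f6 (69.9), Rara (53.0) and Esrra (50.7), and the lowest were Esrrb (20.4), Pparg (15.7) and Rxrg (12.7). All 15 other receptor genes had a summit of at least 5-fold within 1 kb of a start, against 67.4% of protein-coding genes.

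**Figure D4:**
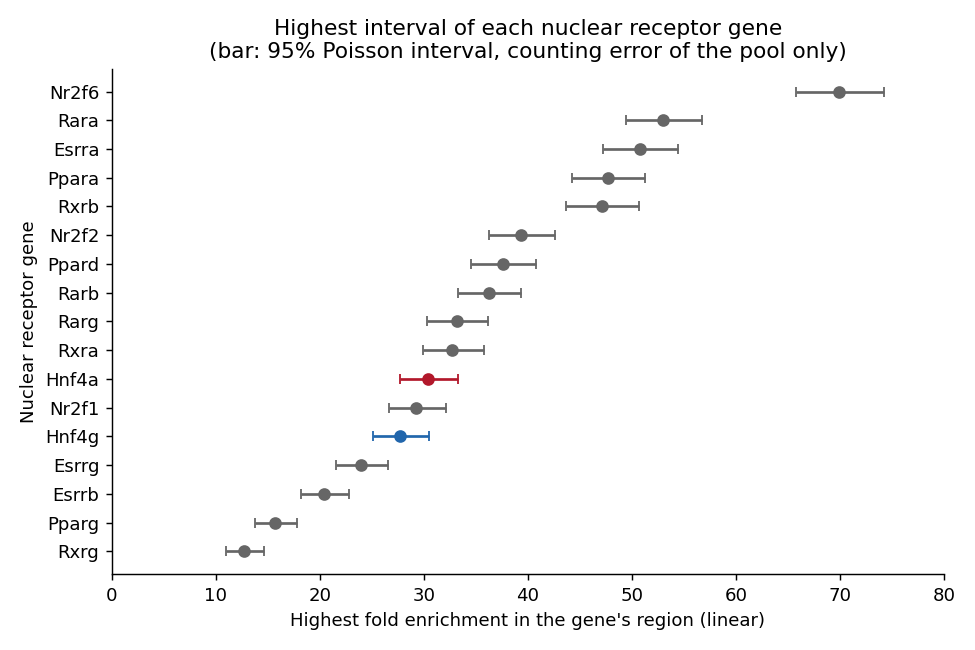
Highest fold enrichment (linear axis) in the region of each of 17 nuclear receptor genes, with 95% Poisson intervals for counting error of the pool. Hnf4a (30.4) and Hnf4g (27.7) are coloured, and their intervals overlap those of Rxra, Nr2f1 and each other.

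Genes that work with HNF4 were listed as partners and regulators. Of 15 such genes, 14 had a summit of at least 5-fold within 1 kb of a start, against 67.4% of protein-coding genes. The highest summit within 1 kb of a start had a median fold of only 13.9, against 19.7 over protein-coding genes. The median highest fold was 25.9, against 24.3 over protein-coding genes. The highest were Ncoa2 (84.0), a coactivator of nuclear receptors, Foxa3 (71.0), a forkhead factor, and Cebpa (49.2), a liver and fat regulator. The lowest were Cdx2 (2.55), an intestinal homeobox factor, Nr0b2 (6.42), a corepressor also called SHP, and Foxa2 (9.10).

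Genes of the proximal tubule were listed next, many of them transporters and metabolic enzymes. Of these, 24 of 25 had a summit of at least 5-fold within 1 kb of a start, against 67.4% of protein-coding genes. The highest summit within 1 kb of a start had a median fold of only 15.5, against 19.7 over protein-coding genes. The median highest fold was 24.4, against 24.3 over protein-coding genes. The highest were Slc6a19 (80.3), a neutral amino acid transporter, Ttc36 (42.2) and Slc2a2 (38.2), a glucose transporter. The lowest were Slc22a6 (5.30), an organic anion transporter, Slc5a2 (7.40), the glucose cotransporter SGLT2, and Acsm2 (9.03). In contrast, 6 of 16 genes known as HNF4 targets in liver and gut had such a start summit, and their median highest fold was 7.79. The highest were Mttp (78.2), which loads lipoproteins, Ambp (58.0) and Apoa1 (21.5), an apolipoprotein, but the highest summits within 1 kb of the Ambp and Apoa1 starts were 3.67 and 3.08. Cyp7a1, the rate-limiting enzyme of bile acid synthesis, Cyp3a11, a drug-metabolising enzyme, and Fabp2, a gut fatty acid binding protein, had no interval. The looser HNF4 word was in 12 of 64 windows of the liver and gut genes (18.8%) and in 26 of 340 windows of the proximal tubule genes (7.65%), against 7.27% of all. Vil1 alone gave 4 of the 12. The HNF4 word CAAAGTCCA was in 1 of 64 (1.56%) and 2 of 340 (0.588%), against 0.884% of all. The liver and gut genes were listed as known HNF4 targets, and the difference was not tested.

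The tissue label was read against marker genes. All 8 proximal tubule markers, 4 of 5 of thick limb and distal tubule and 3 of 5 of collecting duct had a summit of at least 5-fold within 1 kb of a start. So did 2 of 4 markers of podocytes, 1 of 4 of endothelium, 2 of 4 of immune cells, 2 of 4 of stroma and 1 of 6 of other organs (Sox2). Among all protein-coding genes the share was 67.4%, and the marker lists are short. Median start folds were 18.4 for thick limb and distal tubule, 11.5 for collecting duct, 11.1 for proximal tubule, 7.14 for podocytes, 6.58 for immune cells, 4.84 for stroma, 3.44 for endothelium and 2.95 for other organs, against 19.7 over protein-coding genes. An open start does not show which cell type it came from, and the part of other cell types in the HNF4 values was not tested.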

How the data were processed

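ATAC-seq was measured in 6 mapped kidney libraries. The authors used fastp for trimming and Bowtie2 2.3.4.3 for alignment to mm39 (GRCm39), removed duplicates, kept uniquely mapped reads, called peaks with MACS3 3.0.0 without a model and removed blacklisted regions with BEDTools 2.29.1; the submitters' processing notes also name deepTools 3.5.1. The direction of the read shift is not clear from the methods, and it bears on the exact base of a summit. By their peak names the lists are 1 call over all libraries, and 0 per-sample columns exist. The deposited columns hold, per summit, a fold enrichment (a linear ratio), −log10 q and an integer score that the authors' caller derived from q. Summits were counted from the filtered peak list, which holds 749750. The separate summit list, deposited before region filtering, holds 750624 and gave none of the counts above.

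Rows with the same start and end were joined into intervals, each with its highest summit by −log10 q. Genes and sequences came from GENCODE M39 and GRCm39. Words were sought in 200 bp around each highest summit. Scripts used Python 3.11.15, pandas 2.3.3, scipy 1.17.1 and pysam 0.24.0; on simulated data they recovered 2000 of 2000 overlap queries and 2700 of 2700 planted words. No test between groups was run, since the list separates neither genotype nor mouse. The rule for what was named took, per member, every start interval and the 8 highest others, and per list the 3 highest and 3 lowest genes and those without an interval; sequences were limited to the starts and sites that the results turn on. Members, lists and rule were chosen with earlier results of these data known. Alternatives were other thresholds, flanks, summaries and word forms.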

Additional observations from a re-analysis of the deposited data

How the results depend on the processing

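No paired analysis was possible because the peak list is pooled over all libraries, and for the same reason no replicate could be left out. Limits of the values are the missing spread between mice and the unknown depth of single libraries. Interval counts depended on the threshold and on whether intervals or summits were counted. Hnf4a had 22 intervals, 12 with q under 1e-05, 6 of at least 5-fold and 118 if summits were counted, and Hnf4g had 35, 13, 7 and 72. With q under 0.01, with 10 kb flanks or in the gene body alone the counts stayed within 1.5 times. The highest fold at Hnf4a was 30.4, and 3.01 as the median over the summits of that interval, which holds many weaker summits; the strongest Hnf4g interval holds 1 summit, so this alternative could not move it. The covered share was 53.8% at Hnf4a, 49.4% with q under 1e-05 and 48.3% with 10 kb flanks, and 14.8%, 10.1% and 14.4% at Hnf4g. The percentile by highest fold, 57.7 for Hnf4a and 54.1 for Hnf4g, was 45.7 and 41.1 among genes with a summit within 1 kb of a start, and the percentile by intervals per 10 kb was 70.7 and 56.7. Windows with the HNF4 word were 0, 4 with 1 mismatch and 1 with the looser word. Windows with the HNF1 word were 6 with up to 2 mismatches, the form chosen after seeing the data, and 0 with up to 1.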

Other observations

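Beyond the counted regions, each HNF4 gene had an accessible interval of at least 5-fold within 10 kb. Downstream of Hnf4a, chr2:163415606-163418222 held 8 summits and reached a fold of 7.01, with its highest summit 2485 bp past the gene end. Upstream of Hnf4g, chr3:3567622-3568242 reached 6.48 at a summit 5222 bp before the gene start. The other 7 flanking intervals of the genes ranged from 1.83 to 3.27. None of the other small genes annotated inside the members, Gm25881 in Hnf4a and Gm37000 and Gm55254 in Hnf4g, had a summit within 500 bp of its start.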
